A study of Mus musculus with 35 samples.

Results

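The alpha and beta globin genes were followed across 35 RNA-seq libraries of LT-HSCs, long-term blood-forming stem cells sorted from mice, which renew themselves and stand at the top of blood formation. The members were taken by name from a list of 9 globin genes, and counts of 8 of them, among 19138 genes in all, were read in every library. The ninth, the embryonic alpha-like gene Hba-x, was not analysed here. Each library came from total RNA of 1000 sorted cells and was prepared with a SMARTer low-input kit. The total per library ranged from 13.6 M to 48.6 M counts (M for mega), and the median was 24.9 M.

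All mice carried SclCre, a Cre recombinase under control elements of Scl (Tal1), a transcription factor gene active in blood stem cells. The 6 genotypes were SclCre alone (control, 4 libraries), SclCre with Ezh2+/- (Ezh2-het, 7), SclCre with Ezh2-/- (Ezh2-null, 4), SclCre with JAK2V617F (JAK2-VF, 6), SclCre with JAK2V617F and Ezh2+/- (JAK2-VF Ezh2-het, 8), and SclCre with JAK2V617F and Ezh2-/- (JAK2-VF Ezh2-null, 6). JAK2V617F is the activating kinase mutation of myeloproliferative neoplasms, and Ezh2 is the enzyme that places the repressive mark H3K27me3. The labels name a batch, without saying of what (14 libraries in batch 1 and 21 in batch 2) and a sex (20 female and 15 male), but no strain, age or animal. All 4 control libraries were female, and 5 of 6 JAK2-VF Ezh2-null libraries were female. The JAK2-VF group had 2 female and 4 male libraries, and the Ezh2-null group 1 female and 3 male. Ezh2-het had 3 female and 4 male libraries, and JAK2-VF Ezh2-het 5 female and 3 male. P-values therefore measure the spread between these libraries, which may be technical.

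The deleted gene was checked first. A part of Ezh2 of 178 bases was counted on its own. It had 0 counts in all 6 JAK2-VF Ezh2-null libraries, whose Ezh2 counts were 473 to 1407. It had 0 counts in 3 of 4 Ezh2-null libraries and 3 counts beside 627 Ezh2 counts in the other. In libraries labelled Ezh2 wild type or heterozygous it had counts in all but 1, the Ezh2-het batch 1 replicate 3, where 0 counts stood beside 831 Ezh2 counts. In Ezh2-het batch 2 replicates 1 and 3 the part made up 1.738% and 1.774% of Ezh2 counts. It made up 4.077% to 9.497% in the other wild-type or heterozygous libraries with counts. The Ezh2-het batch 1 replicate 1 was labelled male and had 391 CPM (counts per M counts of the library) of Xist, against 0.448 to 14.4 in the other 14 male and 590 to 1350 in the 20 female libraries. The 2 libraries Ezh2-het batch 1 replicates 1 and 3 are called doubted below. Of 15 listed LT-HSC genes, 14 or 15 were detected in every library. The list includes Cd34, Flt3 and Cd48, which are not specific to LT-HSCs, so detection alone does not identify the cells.

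Haemoglobin is built from alpha-like and beta-like chains, and each kind is encoded by a cluster of genes used in sequence through development. In the mouse, Hbb-y, Hbb-bh1 and Hba-x are used in the embryo, and Hba-a1, Hba-a2 and the adult beta genes serve definitive red cells. Hbb-bs and Hbb-bt are the adult beta genes of one mouse haplotype, and Hbb-b1 and Hbb-b2 those of another. Globin genes are transcribed at high level in maturing erythroblasts, under factors such as Klf1 and Gata1, and a sorted stem cell is not a cell that makes haemoglobin.

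The 8 genes behaved as 5 distinct measurements. Hbb-bt and Hbb-b2 had identical counts in 35 of 35 libraries (72104 counts in all), and so did Hba-a1 and Hba-a2 (18292 counts). Hbb-bs and Hbb-b1 were identical in 30 of 35 libraries and differed by at most 3 counts elsewhere (25037 and 25042 counts). Reads of each pair cannot be assigned to 1 copy from these counts, so every value given below for Hbb-bt, Hbb-bs or Hba-a1 stands for its pair. Hbb-y had 113 counts over 8 libraries, at most 29 in any of them, and Hbb-bh1 had 1 count in all. The adult genes together took no more than 0.0458% of the counts in any library. In bulk RNA, fewer cells of a type and less RNA per cell cannot be told apart.

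The promoters of the measured adult genes are shown because Hbb-bt did not vary together with Hbb-bs and Hba-a1 across genotypes. The sequences are the 250 bases before the annotated start from RefSeq on build GRCm38.p6, which differs from the build of the counts, mm9; 6 of the 9 members had an entry. Capitals mark matches, on either strand, to CACCC (the box bound by Klf1), GATAA (the core bound by GATA factors), CCAAT and TATAA. The Hbb-bt sequence spans chr7:103813924-103814173 on the minus strand, the Hbb-bs sequence chr7:103827929-103828178 on the minus strand, and the Hba-a1 sequence chr11:32283422-32283671 on the plus strand.
Hbb-bt: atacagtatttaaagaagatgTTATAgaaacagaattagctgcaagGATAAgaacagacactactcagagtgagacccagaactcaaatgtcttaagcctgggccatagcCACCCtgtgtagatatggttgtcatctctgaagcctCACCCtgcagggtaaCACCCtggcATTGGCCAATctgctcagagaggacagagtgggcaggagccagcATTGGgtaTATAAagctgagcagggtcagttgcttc
Hbb-bs: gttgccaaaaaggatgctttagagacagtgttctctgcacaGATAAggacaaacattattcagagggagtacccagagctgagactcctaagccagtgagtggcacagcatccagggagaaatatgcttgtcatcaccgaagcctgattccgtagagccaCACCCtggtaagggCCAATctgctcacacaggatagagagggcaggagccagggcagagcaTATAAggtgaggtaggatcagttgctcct
Hba-a1: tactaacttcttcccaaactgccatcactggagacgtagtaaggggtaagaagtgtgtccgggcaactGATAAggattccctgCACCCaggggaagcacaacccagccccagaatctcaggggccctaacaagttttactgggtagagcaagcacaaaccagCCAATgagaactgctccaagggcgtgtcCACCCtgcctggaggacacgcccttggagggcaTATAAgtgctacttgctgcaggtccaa
No pair of these matches overlapped. The Hbb-bt sequence held 3 matches to CACCC, 3 to CCAAT, 1 to GATAA and 2 to TATAA, and the Hbb-bs sequence held 1 match to each. The Hba-a1 sequence held 2 matches to CACCC and 1 to each of the others. Of 32851 promoter sequences of this length, 52.0% held CACCC, 33.8% CCAAT, 22.6% GATAA and 22.8% TATAA. The Hbb-bt and Hbb-bs sequences were identical at 69.3% of aligned positions, with a longest shared run of 14 bases. The Hba-a1 and Hba-a2 sequences shared a run of 247 bases and were offset at the ends, which gave 97.6% identity over 253 aligned positions. A match is a run of letters, and nothing in the counts measures binding there.

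Hbb-bt, the adult beta gene known as beta-t, had at least 263 counts in every library and was high in the JAK2-VF Ezh2-null group. Its levels, in CPM scaled by TMM-normalised library size, were 161, 66.4 and 323 in batch 1 and 286, 209 and 359 in batch 2 of that group. In JAK2-VF libraries they were 12.5 and 16.9 in batch 1 and 27.9, 23.4, 39.1 and 25.8 in batch 2. The groups did not overlap, and each of the 6 JAK2-VF Ezh2-null libraries lay above every JAK2-VF library. Here and below, how many of all genes separate the compared groups fully was not counted. Means were 234 ± 110 CPM (SD, n = 6) and 24.3 ± 9.26 CPM (SD, n = 6).

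JAK2-VF Ezh2-het libraries had Hbb-bt at 16.4 to 56.0 CPM, with a median of 33 and a mean of 32.5 ± 12.3 (SD, n = 8). All 8 lay below the lowest JAK2-VF Ezh2-null library. Control libraries had 26.3, 17.1, 59.3 and 17.4 CPM, a mean of 30 ± 20 (SD, n = 4). Ezh2-null libraries had 18.9, 21.3, 47.6 and 29 CPM, a mean of 29.2 ± 13 (SD, n = 4). Ezh2-het libraries had 18.6 to 92.2 CPM with a median of 35.2 and a mean of 42.9 ± 31.1 (SD, n = 7). Of the 29 libraries outside the JAK2-VF Ezh2-null group, 2 exceeded its lowest library. Both were Ezh2-het libraries, at 81.5 and 92.2 CPM. The library at 81.5 CPM, batch 1 replicate 1, is among the 2 doubted libraries. Ordered by median, no neighbouring pair of groups was free of overlap.

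**Figure D1:**
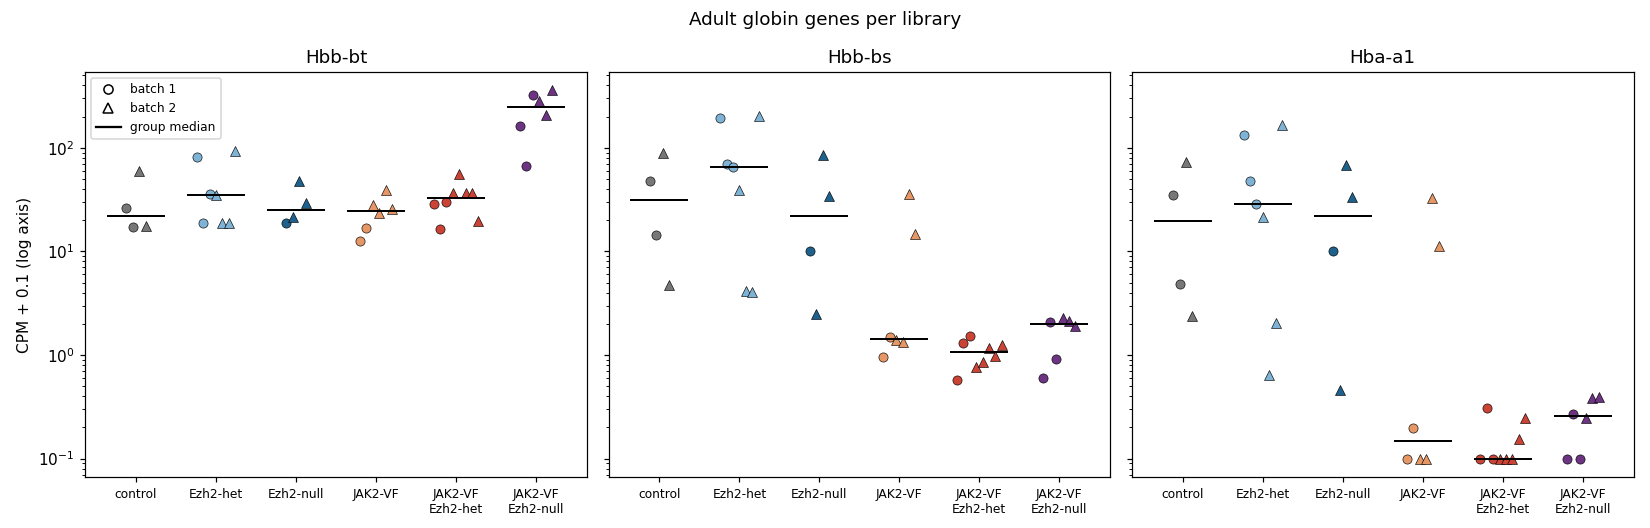
CPM of Hbb-bt, Hbb-bs and Hba-a1 (log axis, with 0.1 CPM added so that libraries at 0 can be drawn) in each library of the 6 genotype groups. Circles are batch 1, triangles batch 2 and lines group medians; Hbb-bt is highest in JAK2-VF Ezh2-null libraries (66.4 to 359 CPM), where Hbb-bs and Hba-a1 lie near the bottom of their range.

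Hbb-bt was higher in JAK2-VF Ezh2-null than in JAK2-VF cells by 3.47 ± 0.46 on the log2 scale (SE, edgeR quasi-likelihood test, Benjamini-Hochberg adjusted p = 5.79e-05, higher in 6 of 6 libraries). It was 1 of 4 globin measurements tested that were called in this comparison, where 0.475% of all 14945 genes tested were called; a gene was called at an adjusted p under 0.05. Within batches the value was 3.63 in batch 1 (adjusted p = 0.447) and 3.4 in batch 2 (edgeR adjusted p = 0.0303). Leaving out any 1 library gave 3.25 to 3.63, called each time. Batch 1 alone holds 2 JAK2-VF libraries. In females alone the value was 3.75 (edgeR adjusted p = 0.025), with the same 2 JAK2-VF libraries. The fits of batch 1 and of females are therefore not separate checks of that group.

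Hbb-bt was also called against 3 other groups; JAK2-VF Ezh2-null and Ezh2-het cells, whose Hbb-bt ranges overlapped, were not compared by a test. Against JAK2-VF Ezh2-het cells it was higher by 2.93 ± 0.38 (log2, SE, edgeR adjusted p = 6.53e-05, 6 of 6 libraries above all 8), and 1 of 4 globin measurements was called against 0.455% of all genes. In batch 1 alone this was 2.84 (adjusted p = 0.305) and in batch 2 alone 2.95 (edgeR adjusted p = 0.0309). Against Ezh2-null cells it was higher by 3.24 ± 0.54 (log2, SE, edgeR adjusted p = 0.000276, 6 of 6 above all 4), where 1 of 4 was called against 4.84% of all genes. In batch 1 alone, with 1 Ezh2-null library, this was 3.12, and in females alone, also with 1 Ezh2-null library, 3.74. In batch 2 alone it was 3.2 (edgeR adjusted p = 0.0125). Against control cells it was higher by 2.96 ± 0.50 (log2, SE, edgeR adjusted p = 0.000357, 6 of 6 above all 4), with 3.07 in batch 1 (adjusted p = 0.0623) and 2.86 in batch 2 (adjusted p = 0.0772). These comparisons share the JAK2-VF Ezh2-null libraries.

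Without JAK2V617F, the comparison of Ezh2-null with control cells did not pass the test. Hbb-bt differed between Ezh2-null and control cells by -0.29 ± 0.54 on the log2 scale (SE, edgeR adjusted p = 1). In that comparison 0 of 4 globin measurements were called by edgeR, by DESeq2 or by limma-voom, against 0.00669% of all genes called by edgeR. At an unadjusted edgeR p under 0.05 there were 2, Hba-a1 and Hbb-y, against 891 of all 14945 genes. The difference between the Ezh2-null effect with JAK2V617F and that without it was 3.75 ± 0.77 on the log2 scale for Hbb-bt, with an edgeR adjusted p of 0.0775, which missed the threshold. Here 0 of 4 globin measurements were called by edgeR and by limma-voom and 1 by DESeq2, against 0.00669% of all genes called by edgeR. The share of all genes called by DESeq2 is not given here, so its 1 call has no share beside it. An unadjusted edgeR p under 0.05 was reached by 2, Hbb-bt and Hbb-y, and by 809 of all 14945 genes. Leaving out JAK2-VF Ezh2-null batch 1 replicate 2 or Ezh2-het batch 2 replicate 2 brought Hbb-bt under the threshold, and the range over all such fits was 3.31 to 3.99.

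**Figure D2:**
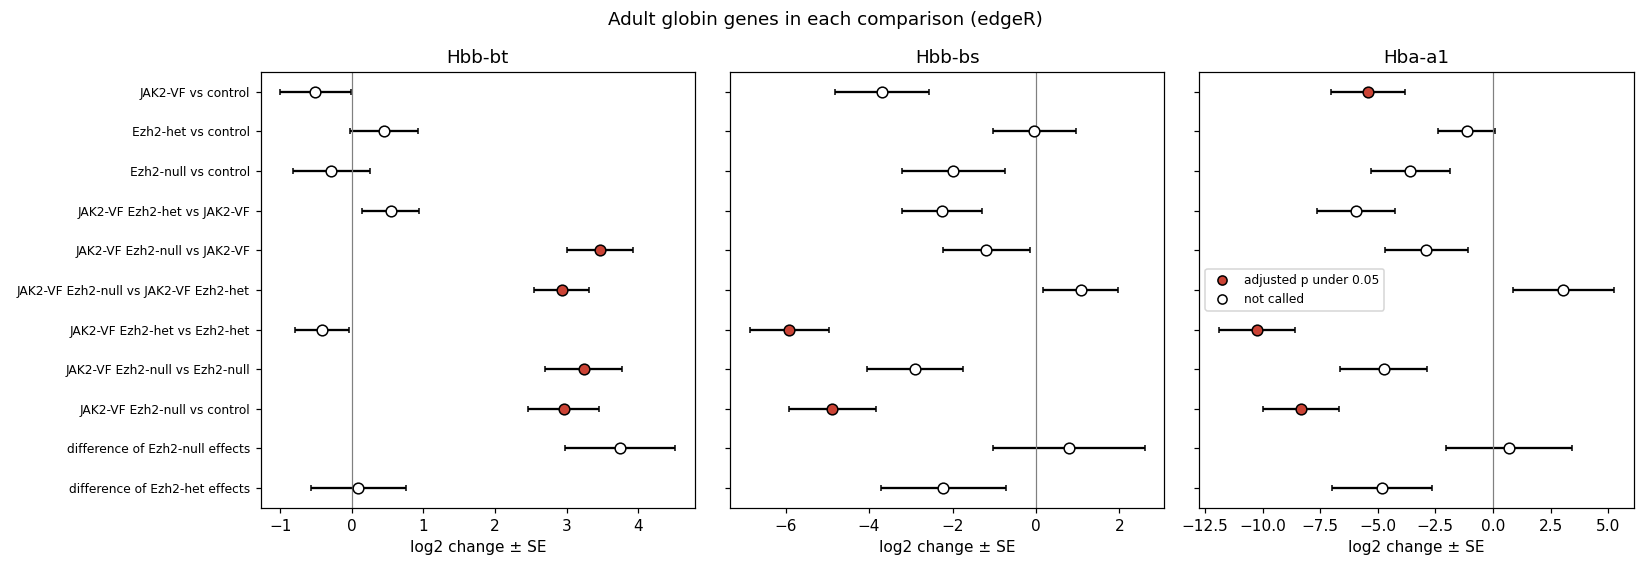
Log2 change of Hbb-bt, Hbb-bs and Hba-a1 in each comparison from the edgeR fit, with bars of 1 SE. Filled red points have an adjusted p under 0.05; the 4 comparisons of JAK2-VF Ezh2-null cells give Hbb-bt changes of 2.93 to 3.47, and the largest falls are those of Hba-a1.

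Loss of 1 Ezh2 allele did not give a called globin change. Between Ezh2-het and control cells, 0 of 4 globin measurements were called by edgeR, DESeq2 or limma-voom, and 0.0% of all genes were called by edgeR. Of the 4, 1 (Hbb-y) had an unadjusted edgeR p under 0.05, against 772 of all 14945 genes. Hbb-bt differed by 0.45 ± 0.48 on the log2 scale (SE, edgeR adjusted p = 1). Between JAK2-VF Ezh2-het and JAK2-VF cells, 0 of 4 were called by edgeR or limma-voom and 1 by DESeq2 (Hba-a1, adjusted p = 0.00754). By edgeR 0.0% of all genes were called, and the share called by DESeq2 is not given here. Of the 4, 2 (Hbb-bs and Hba-a1) had an unadjusted edgeR p under 0.05, against 578 of all 14945 genes. Hbb-bt differed there by 0.54 ± 0.40 (log2, SE, edgeR adjusted p = 1). For the difference of the Ezh2-het effects, 0 of 4 were called by any of the 3 tools, and 0.0% of all genes were called by edgeR. Here 2 (Hba-a1 and Hbb-y) had an unadjusted edgeR p under 0.05, against 622 of all 14945 genes.

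Hbb-bs and Hba-a1 showed another pattern, with wide spread in cells without JAK2V617F and values near 0 in most cells with it. Hbb-bs was 48.0, 14.2, 88.9 and 4.69 CPM in control libraries, and 10, 2.37, 84.7 and 33.8 CPM in Ezh2-null libraries. In Ezh2-het libraries it ranged from 3.92 to 204 CPM, with a median of 65.1. Within each of these groups the highest library was many times the lowest.

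In JAK2-VF libraries Hbb-bs was 0.857 and 1.38 CPM in batch 1 and 1.29, 1.23, 35.9 and 14.7 in batch 2. The last 2 of these, batch 2 replicates 3 and 4, lay inside the range of the control libraries and the other 4 below it. JAK2-VF Ezh2-het libraries had 0.471 to 1.42 CPM and JAK2-VF Ezh2-null libraries 0.504 to 2.19 CPM. Of 20 libraries with JAK2V617F, 18 lay below all 15 libraries without it, whose lowest was 2.37 CPM.

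Hba-a1, which encodes an adult alpha chain, followed the same libraries. It was 34.6, 4.72, 72.8 and 2.26 CPM in control libraries and 10.1, 0.362, 68.7 and 33.5 CPM in Ezh2-null libraries. In Ezh2-het libraries it was 0.541 to 165 CPM with a median of 28.4. In JAK2-VF libraries it was 0 and 0.0984 CPM in batch 1 and 0, 0, 32.4 and 11.1 CPM in batch 2, again with replicates 3 and 4 apart from the rest.

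JAK2-VF Ezh2-het libraries had 13 Hba-a1 counts in all, with 0 in 5 of 8 and at most 0.207 CPM. JAK2-VF Ezh2-null libraries had 30 counts in 4 of 6 libraries and at most 0.292 CPM. Hba-a1 had no count in 10 of the 20 libraries with JAK2V617F and in 0 of the 15 without it. Levels this low are set by a few counts, and fitted changes against them carry large errors. Intervals and limits from counts cover counting error only, since the reads carry no molecular identifiers.

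**Figure D3:**
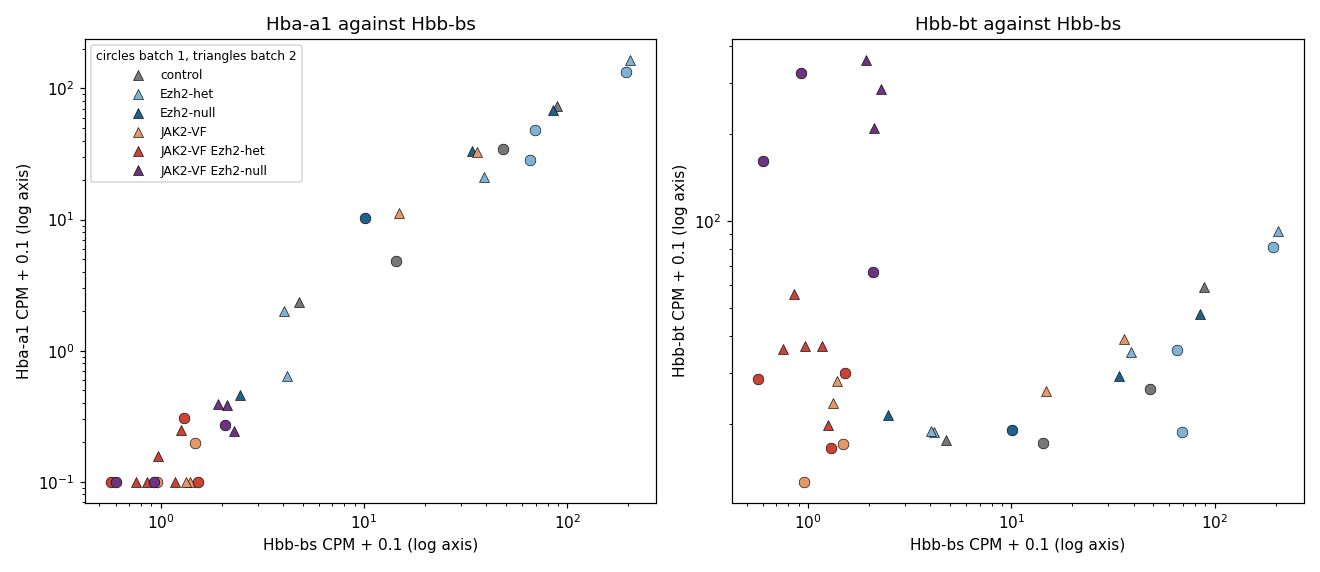
Hba-a1 against Hbb-bs (left) and Hbb-bt against Hbb-bs (right), in CPM on log axes with 0.1 CPM added, 1 point per library. Hba-a1 and Hbb-bs rise together over all 35 libraries, while the 6 JAK2-VF Ezh2-null libraries have high Hbb-bt (66.4 to 359 CPM) at low Hbb-bs (0.504 to 2.19 CPM).

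With the heterozygous Ezh2 genotype, the JAK2V617F difference passed the test for both genes. Between JAK2-VF Ezh2-het and Ezh2-het cells, Hbb-bs fell by 5.91 ± 0.95 on the log2 scale (SE, edgeR adjusted p = 0.000134) and Hba-a1 fell by 10.25 ± 1.65 (SE, edgeR adjusted p = 0.000137). All 8 JAK2-VF Ezh2-het libraries lay below all 7 Ezh2-het libraries for both genes. These were 2 of 4 globin measurements, where 9.05% of all genes were called. The falls of Hbb-bs were -6.42 in batch 1 (adjusted p = 0.00279) and -5.56 in batch 2 (edgeR adjusted p = 0.0461), and those of Hba-a1 were -9.48 (adjusted p = 0.0034) and -9.98 (edgeR adjusted p = 0.0423). Without the 2 doubted libraries they were -5.17 for Hbb-bs (adjusted p = 0.00127) and -9.59 for Hba-a1 (edgeR adjusted p = 0.00081).

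Hbb-bt did not share that fall. It differed by -0.42 ± 0.38 on the log2 scale between the same groups (SE, edgeR adjusted p = 0.572). The direction changed in females alone, to 0.27.

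With Ezh2 intact, 1 of the 2 genes was called, near the threshold. Hba-a1 fell by 5.44 ± 1.60 between JAK2-VF and control cells (log2, SE, edgeR adjusted p = 0.049). Replicates 3 and 4 of batch 2 lay inside the control range and the other 4 JAK2-VF libraries below it. It was 1 of 4 globin measurements called, against 4.22% of all genes. Hbb-bs differed by -3.69 ± 1.13 (log2, SE, edgeR adjusted p = 0.0597) and was not called. The Hba-a1 call was lost in 27 of 35 fits that left out 1 library. With no term for sex the change was -2.41 (adjusted p = 0.39), and within batches it was -8.57 in batch 1 (adjusted p = 0.0234) and -5.09 in batch 2 (edgeR adjusted p = 0.578).

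Cells with both lesions differed from control cells in all 3 adult genes. Hbb-bs fell by 4.88 ± 1.04 (log2, SE, edgeR adjusted p = 0.00435) and Hba-a1 fell by 8.34 ± 1.66 (SE, edgeR adjusted p = 0.00246), while Hbb-bt rose as given above. These were 3 of 4 globin measurements, against 5.48% of all genes called. Of the 15 listed LT-HSC genes 4 fell and 0 rose in the same comparison. Their summed levels were 3280 to 4110 CPM in JAK2-VF Ezh2-null and 4400 to 5170 CPM in control libraries, which did not overlap. Between JAK2-VF and control cells 5 of the 15 fell and 1, Cd34, rose, where 4.22% of all genes were called. Between JAK2-VF Ezh2-null and Ezh2-null cells 5 fell and 0 rose, where 4.84% of all genes were called. The part of the listed LT-HSC genes in the globin differences was not tested. In batch 1 Hbb-bs changed by -4.83 (adjusted p = 0.00745) and Hba-a1 by -8.38 (edgeR adjusted p = 0.00695). In batch 2 the values were -4.94 (adjusted p = 0.266) and -8.46 (edgeR adjusted p = 0.214).

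Against Ezh2-null cells, Hbb-bs differed by -2.90 ± 1.14 (log2, SE, edgeR adjusted p = 0.153) and Hba-a1 by -4.75 ± 1.89 (SE, edgeR adjusted p = 0.157). Neither was called. All 6 JAK2-VF Ezh2-null libraries lay below all 4 Ezh2-null libraries for both genes. The 2 genes followed each other over the 35 libraries (Pearson r of 0.982), so they are not independent instances. With no term for sex both were called, at -4.21 (adjusted p = 0.0198) and -7.26 (edgeR adjusted p = 0.0137). Against JAK2-VF cells, Hbb-bs differed by -1.19 ± 1.04 (SE, edgeR adjusted p = 0.958) and Hba-a1 by -2.90 ± 1.81 (SE, edgeR adjusted p = 0.858), and neither was called.

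The opposite movement shows in the make-up of adult beta globin counts. The 2 genes have nearly the same counted length, 630 and 639 bases. Hbb-bt made up 35.4% to 78.8% of Hbb-bt and Hbb-bs counts in control libraries (median 47.4%), 21.2% to 82.7% in Ezh2-het (median 35.4%) and 36.0% to 90.0% in Ezh2-null libraries (median 55.8%). In JAK2-VF libraries the share was 52.2% to 95.6%, with a median of 93.0%. It was 93.2% to 98.7% in JAK2-VF Ezh2-het (median 97.4%) and 97.1% to 99.7% in JAK2-VF Ezh2-null libraries (median 99.4%). In JAK2-VF and JAK2-VF Ezh2-het cells the high share came with low Hbb-bs, and in JAK2-VF Ezh2-null cells with both low Hbb-bs and high Hbb-bt.

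Alpha and beta genes were compared as levels per length, in CPM per kilobase of the gene length given with the counts. That length was 1118 bases for Hba-a1, against 630 for Hbb-bt and 639 for Hbb-bs. Whether the Hba-a1 length covers 1 transcript only was not checked, so alpha and beta levels on this scale are approximate. Group medians of Hba-a1 were 17.6 in control, 25.4 in Ezh2-het and 19.5 in Ezh2-null libraries, and those of Hbb-bs were 48.6, 102 and 34.3. In JAK2-VF Ezh2-null libraries the median of Hbb-bt was 393 on this scale, that of Hbb-bs 2.97 and that of Hba-a1 0.141. High adult beta globin counts in that group were thus counts of Hbb-bt, beside few counts of the alpha genes. The library with the most, batch 2 replicate 1, had 13704 counts of Hbb-bt, 105 of Hbb-bs and 7 of Hba-a1. JAK2-VF batch 2 replicate 3, in contrast, had 1333, 1223 and 1104 counts.

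**Figure D4:**
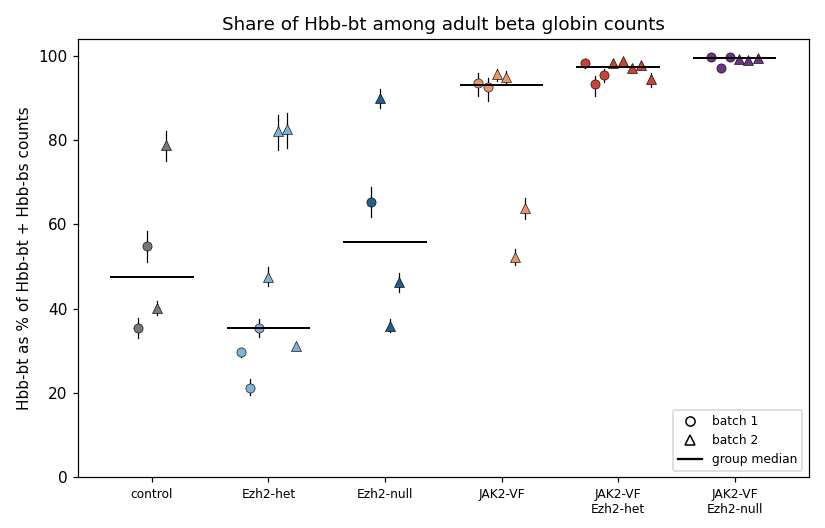
Hbb-bt as a percent of Hbb-bt plus Hbb-bs counts in each library, with 95% Wilson intervals that cover counting error only. JAK2-VF Ezh2-null libraries sit between 97.1% and 99.7%, and the libraries without JAK2V617F spread from 21.2% to 90.0%.

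The embryonic genes were at the edge of detection. Hbb-y passed the low-count filter but was not called in any of the 11 comparisons, and its fitted changes rest on counts in 8 libraries. In JAK2-VF Ezh2-null libraries it was 0 to 0.675 CPM and in JAK2-VF libraries 0 to 0.551 CPM. The single Hbb-bh1 count came from a JAK2-VF Ezh2-null library (0.0392 CPM), and the gene was not tested. Of 10 listed minor globin family genes, 6 had counts read here and their summed level was at most 3.57 CPM.

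Genes of the red cell membrane and haem pathway were compared next. Slc4a1, the band 3 anion exchanger of the red cell membrane, had counts in 11 of 15 libraries without JAK2V617F and in 3 of 20 with it. It had 0 counts in all 6 JAK2-VF Ezh2-null libraries and 1 count in 1 of 8 JAK2-VF Ezh2-het libraries. In the JAK2-VF group it had counts in batch 2 replicates 3 and 4 alone, at 4.75 and 0.948 CPM; these are the libraries with Hba-a1 at 32.4 and 11.1 CPM.

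Between JAK2-VF Ezh2-het and Ezh2-het cells, 6 of 18 late erythroid membrane and cytoskeleton genes fell and 1 rose (edgeR adjusted p under 0.05), with a list median of -1.01 against -0.01 over all genes. Over all genes 9.05% were called, 729 higher and 624 lower of 14945, which is the share to read the counts of this paragraph against. Slc4a1 (adjusted p = 0.000586) and Ermap (edgeR adjusted p = 0.00714) were among those that fell. Alas2, the erythroid enzyme of the first step of haem synthesis, fell by 2.87 ± 0.72 (log2, SE, edgeR adjusted p = 0.00807). Of 18 haem and iron genes, 2 rose and 1 fell. Of 33 globin regulators, 2 rose and 9 fell, with a list median of -0.12; Gata1 rose by 1.84 ± 0.37 (log2, SE, edgeR adjusted p = 0.00113), and Bcl11a (adjusted p = 0.0208) and Zbtb7a (edgeR adjusted p = 0.013) fell by 0.34 and 0.37. Of the 15 listed LT-HSC genes, 7 fell and 1, Cd34, rose in the same comparison. Their summed levels were 3160 to 4670 CPM in JAK2-VF Ezh2-het and 4410 to 6380 CPM in Ezh2-het libraries. Of 12 matched erythroblast markers, 5 fell and 0 rose in this comparison, with a median of -1.85; some of these genes are also in the lists above. Between 6 and 12 of the markers were detected per library. Their summed level had medians of 4730 to 5300 CPM in all 6 groups but was led by Car2, at 3620 to 6490 CPM in every library, so the sum does not show the fall of the low markers. The part of either marker list in the globin differences was not tested.

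In JAK2-VF Ezh2-null against JAK2-VF cells, where Hbb-bt rose, 0.475% of all genes were called, so counts of 0 in lists of this size say little about the lists. Among 18 late erythroid genes edgeR called 0, with a median of -0.07 against 0.01 over all genes. Among 18 haem and iron genes it called 0, with a median of -0.11, and among 23 other red cell genes 0, with a median of 0.07. Rhag, the Rh-associated glycoprotein of the red cell membrane, was 100 ± 12.3 CPM (SD, n = 6) in JAK2-VF Ezh2-null and 38.4 ± 10.8 CPM (SD, n = 6) in JAK2-VF libraries, higher in 6 of 6 with an edgeR adjusted p of 0.097. Against JAK2-VF Ezh2-het cells it was called, at 1.45 ± 0.26 (log2, SE, edgeR adjusted p = 0.00268), and against control cells at 2.07 ± 0.33 (SE, edgeR adjusted p = 0.000116). Of 13 neutrophil and monocyte markers edgeR called 0; their summed level was 981 to 7680 CPM in JAK2-VF Ezh2-null and 2070 to 18900 CPM in JAK2-VF libraries. Of 12 matched erythroblast markers, Slc4a1 was at 0 in every JAK2-VF Ezh2-null library, and their summed level was 4750 to 6080 CPM there and 3710 to 6300 CPM in JAK2-VF libraries. The part of these levels in the Hbb-bt difference was not tested.

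**Figure D5:**
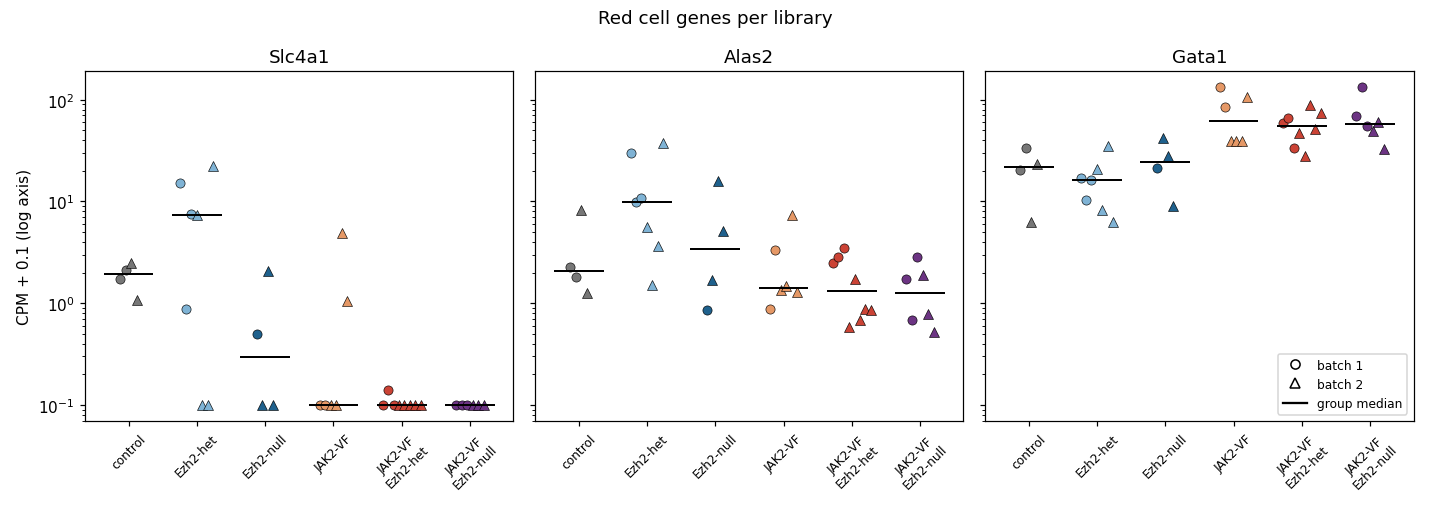
CPM of Slc4a1, Alas2 and Gata1 (log axis, 0.1 CPM added) in each library by genotype group, circles batch 1 and triangles batch 2, lines group medians. Slc4a1 is at 0 in all 6 JAK2-VF Ezh2-null libraries, and group medians of Gata1 are 55.7 to 62.4 CPM with JAK2V617F and 16.3 to 24.5 CPM without it.

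Known globin regulators were read from a list of 33 tested genes. In JAK2-VF Ezh2-null against JAK2-VF cells, 2 rose and 0 fell, where 0.475% of all genes were called (60 higher and 11 lower of 14945), with a list median of -0.04 against 0.01 over all genes. Lin28b, an RNA-binding protein of fetal-type blood cells, was one of them. It was 2.55 to 12.2 CPM in JAK2-VF Ezh2-null libraries, had 2 counts in all JAK2-VF libraries and 0 counts in all 8 JAK2-VF Ezh2-het libraries, and reached 3.09 CPM elsewhere. Its edgeR adjusted p was 0.00839 against JAK2-VF and 0.000162 against JAK2-VF Ezh2-het cells. Lin28b was not called against Ezh2-null cells (1.23 ± 1.34, log2, SE, edgeR adjusted p = 0.697) or control cells (4.21 ± 1.37, edgeR adjusted p = 0.0678). Between JAK2-VF Ezh2-het and Ezh2-het cells it changed by -7.8 ± 1.3 (log2, SE, edgeR adjusted p = 0.000201). Nfia, a transcription factor of the nuclear factor I family, rose by 0.61 ± 0.10 in JAK2-VF Ezh2-null against JAK2-VF cells (log2, SE, edgeR adjusted p = 0.00135).

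The regulators best known for adult globin expression were not called in that comparison. Klf1 was 6.68 ± 4.2 CPM (SD, n = 6) in JAK2-VF Ezh2-null and 9.3 ± 6.36 CPM (SD, n = 6) in JAK2-VF libraries (edgeR adjusted p = 0.995). Bcl11a, a repressor of embryonic-type and fetal globin genes, was 241 ± 28.8 and 207 ± 14.4 CPM (SD, n = 6 each, edgeR adjusted p = 0.709). Sox6 (edgeR adjusted p = 0.92), Zbtb7a (0.913) and Myb (0.759) were not called either. Nor were Epor (0.997) and Tfrc (edgeR adjusted p = 0.997), red cell genes outside the regulator list. Gata1 was 66.7 ± 35 and 74.0 ± 40.7 CPM (SD, n = 6 each, edgeR adjusted p = 0.971). It was higher in JAK2-VF than in control cells (20.7 ± 11.3 CPM, SD, n = 4) by 2.18 ± 0.50 on the log2 scale (SE, edgeR adjusted p = 0.00854), in the comparison where Hba-a1 fell.

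Genes next to the clusters were looked up by their order on the chromosome. Beyond the beta cluster on the Hbb-y side, the olfactory receptor gene Olfr632 was 1.9 to 10.6 CPM in JAK2-VF Ezh2-null libraries. In JAK2-VF libraries it was 0 to 3.46 CPM, a difference of 2.89 ± 0.71 (log2, SE, edgeR adjusted p = 0.0516). Olfr631, on the same side, was 1.43 to 9.32 and 0 to 1.44 CPM (edgeR adjusted p = 0.386). Neither passed the threshold. Between them and Hbb-y, Olfr66 had 6 counts in all and Olfr65 differed by 1.24 ± 1.63 (log2, SE, edgeR adjusted p = 0.988). Further out, Olfr633 differed by 6.1 ± 2.32 (log2, SE, edgeR adjusted p = 0.456), with counts in 5 libraries. On the Hbb-bt side, Olfr67, Olfr68, Olfr69 and Olfr629 had at most 22 counts each over all libraries. Beside the alpha cluster, Nprl3, whose introns hold the enhancers of the alpha genes, differed by -0.02 ± 0.24 (log2, SE, edgeR adjusted p = 0.997).

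Across the 35 libraries the genes most like each globin differed. Hba-a1 followed Hbb-bs with a Pearson r of 0.982, and 0.957 after removing group and batch means. Among other genes the highest values were those of Slc4a1 (0.869, and 0.79 within group and batch) and Blvrb (0.777 and 0.603). Hbb-bt had an r of -0.048 with Hbb-bs over all libraries and 0.566 within group and batch. The genes most like Hbb-bt were Gbp3 (0.717, and 0.33 within group and batch), Mab21l2 (0.716 and 0.433) and Clgn (0.688 and 0.019). These values describe libraries that share groups, batches and depth, and carry no test.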

How the data were processed

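Per the labels, total RNA of 1000 sorted LT-HSCs per library was isolated with a Pico-Pure kit and sequenced after SMARTer low-input preparation. The deposited values are raw counts per Entrez gene, made by the authors with STAR on mm9, per the submitters' processing notes; not given in the sources used here are its version, the counting tool, the annotation and whether strand was used. Symbols and gene order came from a RefSeq table of GRCm38.p6, which named 19075 of 19138 genes.

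Counts were tested with the quasi-likelihood test of edgeR 4.0.16 (R 4.3.3, robust estimation) on the 35 libraries together, in a model of genotype group, batch and sex, with TMM factors of 0.937 to 1.062 and 27 residual degrees of freedom. The low-count filter left 14945 genes and removed 4193. A call means an adjusted p under 0.05, by Benjamini-Hochberg over all genes of 1 of the 11 comparisons. The SE is the size of the log2 change over the root of the F statistic. The part of Ezh2 counted on its own stayed out of totals and tests. Likeness used log2 CPM with a prior count of 2. Shares have Wilson intervals at 95%, and plots used matplotlib 3.10.9. The fit was tested on simulated data.

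The members, gene lists and tests were chosen with earlier results of these data known. Robust estimation was settled after the call counts with and without it had been seen. Named genes are all members, 14 fixed regulators and red cell genes, and up to 4 called genes per list and comparison. The 8 genes most correlated with Hbb-bt and with Hba-a1 are also among them, and the text gives part of all these. The neighbouring genes named beside the clusters were picked after their values were seen. Of the 14, Ahsp was not analysed here and another gene is not reported here. Alternatives were DESeq2 1.42.0 size factors and Wald test, limma 3.58.1 voom with quality weights, no filter, total counts as library sizes, copies as 1 row, no sex term, a replicate block, compared groups only, each batch, females, no doubted libraries, each library left out and, added after seeing the data, no robust estimation.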

Additional observations from a re-analysis of the deposited data

Results flagged for a closer look

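Hba-a1 in JAK2-VF batch 2 replicate 3 stood at 32.4 CPM, while the other 5 JAK2-VF libraries were at 0 to 11.1 CPM. The gap to the nearest library was 0.656 of the range of the group, above the limit of Dixon's test for 6 samples. The same library had the highest Slc4a1 of its group, 4.75 CPM. There were 18 such checks of a gene in a group, and chance alone marks about 1 in 20.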

How the results depend on the processing

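The rise of Hbb-bt in JAK2-VF Ezh2-null against JAK2-VF cells kept its direction in every alternative run and its call in all but batch 1 alone, which left 0 globin measurements called there and 0 against JAK2-VF Ezh2-het cells. Against Ezh2-null cells the main count of 1 became 2 with the DESeq2 Wald test, 3 with no term for sex, and 0 with batch 1 alone or females alone. Batch 1 alone and females alone each hold 1 Ezh2-null library. Against control cells the main count of 3 became 1 with limma-voom and 0 with batch 2 alone. The share of all genes called in each alternative is not given, here or below, so these counts have no share beside them.

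Between JAK2-VF and control cells the main count of 1 became 0 with no low-count filter, limma-voom, no term for sex, the replicate block, the compared groups only and batch 2 alone. It became 2 with the DESeq2 Wald test, batch 1 alone, females alone, without the 2 doubted libraries and with no robust estimation. Batch 1 alone and females alone hold the same 2 JAK2-VF libraries. Leaving out each library gave 0 to 2. Between JAK2-VF Ezh2-het and JAK2-VF cells DESeq2 called 1 in place of 0, and between JAK2-VF Ezh2-het and Ezh2-het cells limma-voom called 1 in place of 2. For the difference of Ezh2-null effects, DESeq2 and the fit with no term for sex called 1 in place of 0, and leaving out each library gave 0 to 1.

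Changes of sign were limited to log2 changes that were not called. Between Ezh2-het and control cells Hbb-bs turned to 0.11 with limma-voom, 1.18 with no term for sex and 1.26 in batch 1 alone (-0.52 to 0.67 leaving out each library), and Hba-a1 to 1.2 with no term for sex and 0.27 in batch 1 alone. Between Ezh2-null and control cells Hbb-bt turned to 0.09 with limma-voom (-0.51 to 0.15 leaving out each library). Between JAK2-VF Ezh2-null and JAK2-VF cells Hbb-bs turned to 0.37 in females alone, and Hba-a1 to 0.07 with limma-voom, 0.19 in batch 1 alone and 1.05 in females alone. Between JAK2-VF Ezh2-het and Ezh2-het cells Hbb-bt turned to 0.27 in females alone. For the difference of Ezh2-null effects Hbb-bs turned to -1.92 with no term for sex (-0.08 to 1.6 leaving out each library), and Hba-a1 to -4.85 with no term for sex and -0.01 in batch 2 alone (-0.41 to 2.2 leaving out each library). For the difference of Ezh2-het effects Hbb-bt turned to -0.48 with limma-voom, -0.1 with no term for sex and -0.38 in batch 1 alone (-0.31 to 0.32 leaving out each library). The cause of these changes was not tested.

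Same-numbered libraries did not visibly deviate together: 64 such pairs had correlations of -0.0891 to 0.11, with 2 over 0.1. The 184 pairs with different numbers had -0.157 to 0.14, with 5 over 0.1. Pairing by number was thus not seen at this level, and a smaller shared effect was not tested. With the replicate block, the Hbb-bt change between JAK2-VF Ezh2-null and JAK2-VF cells was 3.34 (edgeR adjusted p = 7.51e-05). Controls were all female, so terms for sex and group rest on the other groups. Hba-a1 at under 3 counts in a library cannot be told from 0.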
